A study of Homo sapiens with 18 samples.

Results

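MHC class I antigen presentation was followed through 9 genes in ZR751 cells, an established ER+ breast cancer cell line. The genes were the heavy chains HLA-B, HLA-C and HLA-E, the light chain B2M, the peptide transporter TAP1 and TAP2, the loading chaperone TAPBP, and the immunoproteasome subunits PSMB8 and PSMB9. They were taken by name, with earlier results of these data known, and all 9 were found among the 23500 identified rows of the expression table. ZR751shMLL3 cells carry a stably transduced short hairpin RNA against MLL3 (KMT2C), a methyltransferase that places H3K4me1 at enhancers, and the hairpin of ZR751shLucif cells, the control line, targets luciferase. ZR751shMLL3 is the knockdown line. Both lines were transduced with lentivirus, sorted for GFP and used at early passage, and a single hairpin stands for MLL3 loss. RNA-seq and ChIP-seq for H3K4me1, SP1 and ERα were made from 2 replicates of each line. The ChIPs came from 1 experimental repetition by the labels, so p-values measure the spread between these libraries.

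Class I molecules show peptides from inside the cell to cytotoxic T cells. The immunoproteasome cuts proteins into peptides, TAP moves them into the endoplasmic reticulum, and tapasin (TAPBP) holds the transporter to an empty heavy chain paired with β2-microglobulin (B2M). The genes are known to respond to interferon through elements in their promoters, and most of them lie in the MHC region.

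On GRCh37, the build of the files (hg19), 8 of the 9 genes lay on chromosome 6. HLA-E was at chr6:30457286-30461971, HLA-C at chr6:31236526-31239907, HLA-B at chr6:31321649-31334844 and TAPBP at chr6:33267471-33282061. The other four chromosome 6 genes were neighbours, with TAP2 at chr6:32789610-32806516, PSMB8 at chr6:32808494-32812456, TAP1 at chr6:32812986-32821593 and PSMB9 at chr6:32811913-32827628. B2M was at chr15:45003556-45011049. The bases before the start sites of HLA-B, HLA-C, HLA-E, B2M and PSMB9 are shown because the difference between cell lines was largest for the first of them in the fit to all 4 libraries and close to 0 for B2M, and because the last holds the letters GC-box factors such as SP1 are known to bind. They are reference sequence on the strand of the gene, from within 200 bases before the start site, without annotated UTRs. Capitals mark GGGCGG, the core of the interferon-stimulated response element (a repeat in which the same 4 letters, GAAA, come again after any 2 bases), the more closely spaced GAANNGAAA, which cannot end at the same base, TTCNNNGAA and CCAAT, each on either strand. The repeat was added after the B2M sequence was seen.
HLA-B, chr6:31325071-31325156: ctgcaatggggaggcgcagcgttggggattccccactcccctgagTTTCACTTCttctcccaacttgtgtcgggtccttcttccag
HLA-C, chr6:31239883-31240069: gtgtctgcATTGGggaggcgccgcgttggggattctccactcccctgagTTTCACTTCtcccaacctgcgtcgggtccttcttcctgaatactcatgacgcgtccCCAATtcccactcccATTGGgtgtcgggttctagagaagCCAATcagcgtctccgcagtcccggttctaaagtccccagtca
HLA-E, chr6:30457086-30457285: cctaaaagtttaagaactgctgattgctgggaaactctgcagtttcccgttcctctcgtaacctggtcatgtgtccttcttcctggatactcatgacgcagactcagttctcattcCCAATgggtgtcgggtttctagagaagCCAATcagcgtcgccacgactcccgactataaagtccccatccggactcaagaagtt
B2M, chr15:45003522-45003706: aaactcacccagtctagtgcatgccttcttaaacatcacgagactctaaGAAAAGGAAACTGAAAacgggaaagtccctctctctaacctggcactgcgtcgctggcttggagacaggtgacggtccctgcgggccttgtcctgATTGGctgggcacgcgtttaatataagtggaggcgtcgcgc
PSMB9, chr6:32821769-32821968: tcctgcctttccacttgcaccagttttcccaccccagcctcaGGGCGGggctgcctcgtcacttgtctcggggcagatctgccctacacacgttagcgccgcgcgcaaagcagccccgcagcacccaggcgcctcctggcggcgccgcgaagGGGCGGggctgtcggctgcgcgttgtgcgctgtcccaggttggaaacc

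Over the full 200 bases, GAANNGAAA was present before 3 of the 9 genes, HLA-B, HLA-C and TAP2, and before 3.57% of the 10900 genes with a position that were tested. The repeat was present before 4 of the 9, B2M, TAP1, TAP2 and TAPBP, and before 1.59% of all. B2M, TAP1 and TAPBP each had 2 such matches that overlapped each other, and in TAP2 the match overlapped that of GAANNGAAA. GGGCGG was present before 4 of the 9, TAP1, TAP2, TAPBP and PSMB9, and before 70.1% of all. CCAAT was found before 4 of the 9, the heavy chains and B2M, and before 31.3% of all. TTCNNNGAA was found before PSMB8 alone among the 9 and before 3.63% of all. A match describes these letters only.

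The MLL3 transcript itself, KMT2C, was at 2.34 and 6.77 FPKM (fragments scaled to transcript length and library size) in the control line and 1.07 and 2.69 in the knockdown line. The lines overlapped, and the log2 difference of -1.02 (SE 0.54) had a limma adjusted p of 0.629. The study tested the knockdown separately by qPCR and reports a difference past its threshold. Those qPCR values are not among the data used here. ZR751shLucif replicate 1 stood apart from the other RNA libraries, with correlations of 0.900 to 0.907 to them across genes, against 0.947 to 0.969 among the other three. All 11 luminal markers passed the filter on low values, with summed levels of 7514 to 15679 FPKM in ZR751shLucif and 11302 to 12920 in ZR751shMLL3. The most abundant of them carry that sum, and 4 of the 11 lay below both controls in both knockdown libraries and 1 above. Over all genes tested, 25.3% lay below in this way and 17.6% above. AGR2, a secretory pathway disulphide isomerase named after its values were seen, had the lowest log2 difference of the list at -1.27 (unadjusted p 0.012 and adjusted p 0.518 by limma). Of 11 leukocyte markers 2 passed, CD68 and LYZ, and the summed level of the list was 10.5 to 15.0 FPKM in ZR751shLucif and 10.8 to 16.5 in ZR751shMLL3. PTPRC, the defining leukocyte marker, did not exceed 0.0318 FPKM in any library. Fibroblast and endothelial markers summed to 13.5 to 18.2 FPKM and 17.5 to 17.9 in the respective lines, and 1 of 8 passed, COL1A1. Basal markers summed to 2.59 to 4.69 and 3.21 to 3.44, and 1 of 6 passed, ACTA2. In bulk RNA, fewer cells with a transcript and less of it per cell cannot be told apart.

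HLA-B and HLA-C had the largest differences of the group in the fit to all 4 libraries, and both were higher in ZR751shMLL3, but no gene of the group passed the adjusted test. The order changed without ZR751shLucif replicate 1, where PSMB9 was at 1.48, HLA-B at 1.32, PSMB8 at 1.21 and HLA-C at 1.12 on the log2 scale. HLA-C at 0.61 was also below HLA-E at 0.76 without ZR751shLucif replicate 2. In both ZR751shMLL3 libraries 6 of the 9 genes lay above both ZR751shLucif libraries, namely HLA-B, HLA-C, HLA-E, TAP1, TAPBP and PSMB8, and none lay below. Over all 11134 genes tested, 17.6% lay above in this way and 25.3% below. By limma on log2(FPKM + 0.5), 0 of the 9 had a Benjamini-Hochberg adjusted p under 0.05. In all, 1 gene (0.00898%) did, the small nucleolar RNA SNORD104, which was outside the group and listed at 0 in both knockdown libraries. At an unadjusted p under 0.05, 2 of the 9, HLA-B and HLA-C, were higher, against 3.67% of all genes, and 0 were lower, against 4.31%. The median log2 difference of the 9 was 0.50, and that of all genes tested was -0.10. The former was 0.29 without ZR751shLucif replicate 2. With 1 surrogate variable removed, which called 1682 genes in all, 4 of the 9 passed the adjusted test. That fit did not count the variable against the degrees of freedom, so its calls cannot be set beside those of the fit reported.

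HLA-B, a classical heavy chain, was at 47.8 and 57.4 FPKM in the control line and 153 and 135 in the knockdown line. Both knockdown libraries were well above both controls. The means were 52.6 ± 6.81 and 144 ± 12.4 FPKM (SD, n = 2), and the fitted fold on the log2(FPKM + 0.5) scale was 2.73. The log2 difference of 1.45 (SE 0.27, 95% interval 0.79 to 2.11) had an unadjusted p of 0.0016 and an adjusted p of 0.355 by limma.

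HLA-C, the other classical heavy chain of the group, was at 171 and 120.1 FPKM without the knockdown and 281 and 243 with it. The lines did not overlap, although the control libraries were farther apart than the knockdown libraries. Its log2 difference was 0.87 (SE 0.30), with an adjusted p of 0.604 by limma. HLA-E, which presents leader peptides of other class I chains to natural killer cells, was at 31.8 and 38.8 FPKM in the control libraries, against 51.7 and 57.0 with the knockdown. Again the lines did not overlap, and the log2 difference was 0.62 (SE 0.27, adjusted p 0.620 by limma). Reads of class I genes can be shared between near-identical paralogs and alleles, so the split between these rows is uncertain.

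B2M, the light chain common to all class I molecules, was the most abundant of the 9, at 684 and 362 FPKM in the control line and 541 and 447 in the knockdown line. The control libraries enclosed the knockdown libraries. The log2 difference was -0.02 (SE 0.37, 95% interval -0.92 to 0.89), an interval that spans both directions. Within libraries, the ratio of HLA-B to B2M was 0.0699 and 0.159 in the control line and 0.283 and 0.303 in the knockdown line. The ratio of HLA-C to B2M was 0.250 and 0.332 in the control line and 0.519 and 0.544 in the knockdown line. Neither ratio overlapped between lines, and for each an exact permutation test (two-sided) gave p = 0.333, the lowest value possible for 2 against 2 libraries. The heavy chain and B2M transcripts differ in GC content, and the ratios were not corrected for it. The ratio of HLA-E to B2M overlapped, at 0.0465 and 0.107 against 0.0957 and 0.128.

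**Figure D1:**
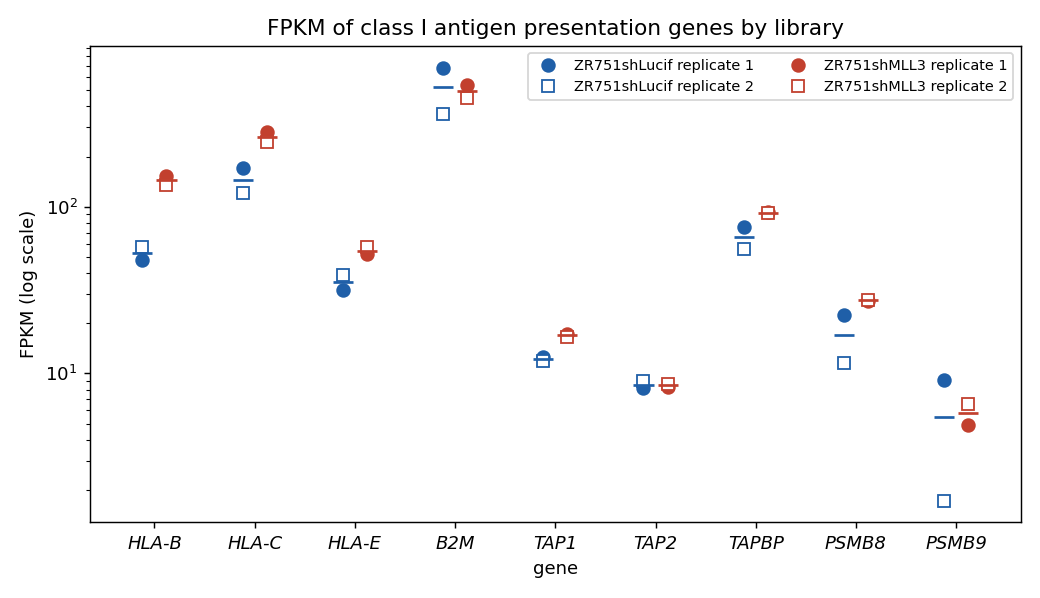
FPKM on a log axis for the 9 genes in each RNA-seq library, ZR751shLucif in blue and ZR751shMLL3 in red, with replicate 1 as filled circles, replicate 2 as open squares and bars at the means. The red points lie above the blue points for 6 of the 9 genes, and the blue points enclose the red points for B2M, TAP2 and PSMB9.

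TAP1 and TAP2 form the peptide transporter. TAP1 was at 12.6 and 11.8 FPKM without the knockdown and 17.3 and 16.6 with it. These values did not overlap, and the spread within each line was small. The log2 difference was 0.45 (SE 0.26, adjusted p 0.642 by limma). TAP2 was at 8.18 and 8.96 FPKM in the control libraries, against 8.31 and 8.66 with the knockdown, within the range of the controls. Its log2 difference was -0.01 (SE 0.26, 95% interval -0.64 to 0.62). TAPBP was at 75.3 and 55.9 FPKM in the control line and 92.5 and 91.2 in the knockdown line, without overlap. Its row also holds transcripts of ZBTB22, the gene next to it, so the value is of both. The log2 difference was 0.50 (SE 0.29, adjusted p 0.641 by limma), and 0.28 without ZR751shLucif replicate 2.

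PSMB8 and PSMB9 replace the constitutive catalytic subunits PSMB5 and PSMB6 in the immunoproteasome. PSMB8 was at 22.3 and 11.6 FPKM without the knockdown and 27.3 and 27.5 with it. The lines did not overlap, and the log2 difference was 0.75 (SE 0.37, adjusted p 0.629 by limma). It was 0.29 without ZR751shLucif replicate 2 and 1.21 without ZR751shLucif replicate 1. PSMB9 was at 9.18 and 1.72 FPKM in the control libraries, against 4.93 and 6.58 with the knockdown. The controls enclosed the knockdown libraries, and the log2 difference of 0.42 (SE 0.66) was -0.64 without ZR751shLucif replicate 2. The ratio of PSMB8 to PSMB5 was 0.181 and 0.109 in the control line and 0.212 and 0.227 in the knockdown line, while that of PSMB9 to PSMB6 overlapped, at 0.0538 and 0.0180 against 0.0402 and 0.0650. PSMB10, the remaining immunoproteasome subunit, stood to its partner PSMB7 at 0.189 and 0.340 in the control line and 0.614 and 0.612 in the knockdown line. For PSMB8 to PSMB5 and for PSMB10 to PSMB7 the exact permutation p was 0.333, two-sided.

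**Figure D2:**
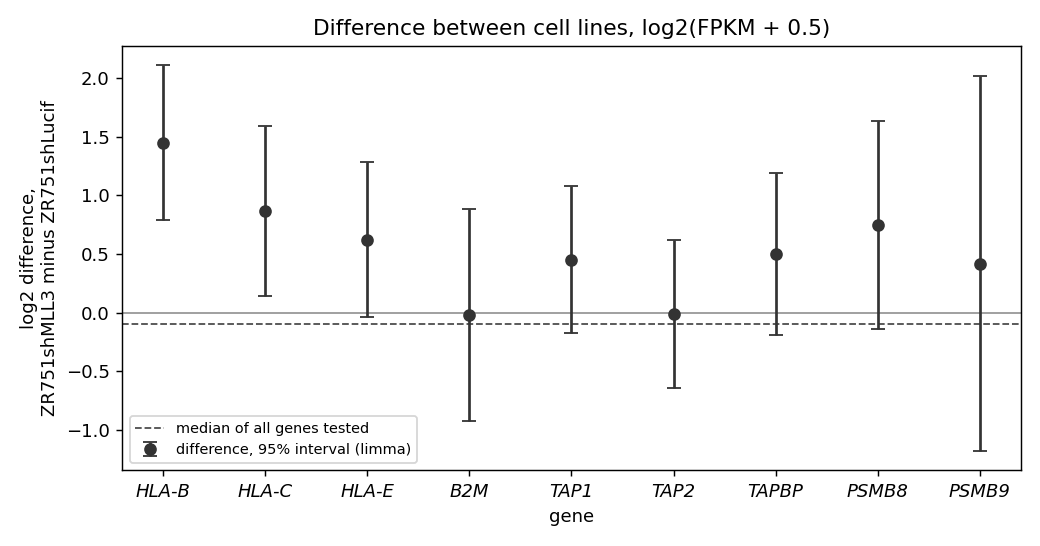
Log2 difference (ZR751shMLL3 minus ZR751shLucif) of each gene on the log2(FPKM + 0.5) scale with its 95% interval from limma, beside the median of all genes tested (dashed, -0.10). The intervals of HLA-B and HLA-C lie above 0, and those of the other genes include it.

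GC content moved with the difference between cell lines. Across 10782 genes with a known transcript, the Spearman correlation of the log2 difference with transcript GC content was 0.536, a description over genes that share the same 4 libraries. The median log2 difference was -0.38 below 40% GC and 0.26 from 60% GC upward. Transcript GC content was 39.1% for B2M, 48.9% for TAP2, 58.9% for HLA-B and 60.1% for HLA-C. With the GC trend removed from each library, an alternative chosen after seeing the data, the median difference of the 9 was 0.44, all 9 differences were positive, and 0 of the 9 passed the adjusted test. PSMB8 at 0.70 then lay above HLA-C at 0.67, while HLA-B was at 1.28 and B2M at 0.34. The ratios within libraries given above were not corrected for GC content. PSMB10 at 61.7% GC and its partner PSMB7 at 49.8% also differ in it.

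**Figure D3:**
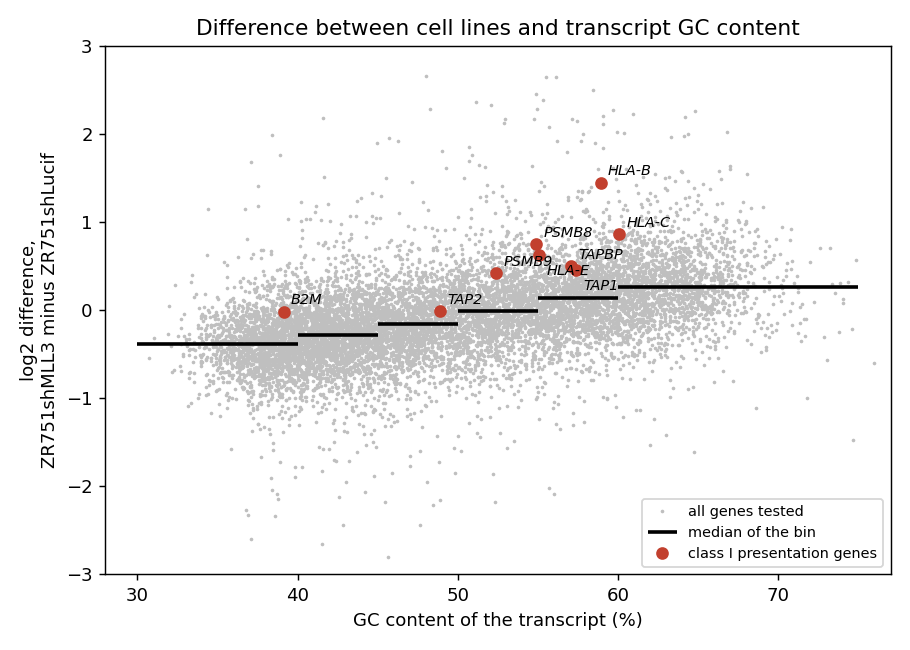
Log2 difference between cell lines against the GC content of the transcript in percent, for all genes tested (grey), with the median of each GC bin (black) and the 9 genes in red. Differences beyond 3 in either direction are not drawn. The bin medians go from -0.38 to 0.26, and HLA-B at 1.45 lies farthest above its bin among the 9.

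No gene of the lists around the pathway passed the adjusted test in limma. Over all genes tested, 3.67% were higher and 4.31% lower at an unadjusted p under 0.05. Of the class I heavy chain and class I-like list, 6 of 11 genes passed the filter and 2 were higher at an unadjusted p under 0.05. HLA-F, a nonclassical heavy chain, was at 10.3 and 11.2 FPKM in the control line and 25.8 and 22.4 in the knockdown line, and FCGRT, the neonatal Fc receptor, had the lowest difference of the list at -0.48. Of 13 tested genes for peptide loading, folding and trimming, 1 was higher and 1 lower at an unadjusted p under 0.05, and the median log2 difference was -0.04. The extremes were LNPEP, an aminopeptidase, at 1.18 and TPP2, a cytosolic peptidase, at -0.71. LNPEP overlapped between lines (unadjusted p 0.140 by limma). The higher gene was ERAP1, named after its values were seen, at 5.06 and 3.73 FPKM in the control line and 8.70 and 10.7 in the knockdown line. Its log2 difference was 1.07 (unadjusted p 0.0099 and adjusted p 0.495 by limma).

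The other proteasome lists had median differences below 0, as had all genes tested, at -0.10. Among 9 exchange partners and activators the median log2 difference was -0.16, with PSMB10 at 1.05 and PSME3, a proteasome activator subunit, at -0.46. At an unadjusted p under 0.05 by limma, 1 of them, PSMB10, was higher and 0 lower, against 3.67% and 4.31% of all genes. Among 11 other 20S subunits the median was -0.25, with PSMA7 at 0.45 and PSMA4 at -0.44. Of these, 0 of 11 had an unadjusted p under 0.05 by limma, against the same shares of all genes.

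Of 19 tested transcriptional regulators of class I genes, 2 were higher and 2 lower at an unadjusted p under 0.05, against 3.67% and 4.31% of all genes. Their median log2 difference was -0.23. IRF9, the DNA-binding part of the interferon-activated ISGF3 complex, was at 4.27 and 2.64 FPKM without the knockdown and 17.2 and 16.7 with it. Its log2 difference was 2.17 (SE 0.31, adjusted p 0.231 by limma), and IRF2 had the lowest at -0.79 (unadjusted p 0.086 by limma). NLRC5, the class I transactivator, named after its values were seen, did not pass the filter and was at 0.471 and 0.603 FPKM against 1.02 and 0.982. Of 10 tested genes in the list of interferon receptors, their kinases and SOCS genes, 1 was higher at an unadjusted p under 0.05, against 3.67% of all genes. It was SOCS3, neither a receptor nor a kinase, at 0.81. IFNGR1 had the lowest difference at -0.63 (unadjusted p 0.081 by limma). MHC class II genes were mostly under the filter, and 2 of 13 passed, HLA-DMA at a log2 difference of 0.32 and HLA-DQB1 at -0.19, both overlapping between lines.

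Of 38 interferon-induced genes 22 passed the filter, and of these 20 had a positive difference, against 4557 of all 11134 genes tested. In both knockdown libraries 11 of the 22 lay above the controls, against the 17.6% of all genes. At an unadjusted p under 0.05 by limma, 6 were higher and 0 lower, against 3.67% and 4.31% of all genes. The median log2 difference was 0.53. IFI6, a mitochondrial interferon-induced protein, was at 44.95 and 17.0 FPKM in the control libraries, against 300.2 and 103 with the knockdown (log2 difference 2.65, SE 0.64, adjusted p 0.471 by limma). USP18, which removes ISG15 from proteins, had the lowest difference of the list at -0.15.

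The genes with patterns nearest to the median pattern of the 9 over the 4 libraries were C19orf47, CNPY3, ATP6AP1, NRIP3 and NAGK, at Euclidean distances of 0.0361 to 0.0618 between centred log2 values. With 4 libraries, such a pattern holds little beyond the difference between lines and the spread within ZR751shLucif.

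H3K4me1 peaks near the 9 genes were fewer in ZR751shMLL3, as were the peaks of the whole lists. Within 50 kb of the genes, 21 and 31 peaks in the control line and 0 and 12 in the knockdown line had a false discovery rate (FDR) of 0.01 or less. The control and knockdown libraries did not overlap, and for the difference in means of -20 an exact permutation test (two-sided) gave p = 0.333. The lists as a whole held 141158 and 192201 such peaks in the control line and 28599 and 109586 in the knockdown line. Per 1000 such FDR peaks of each list, 0.149 and 0.161 lay near the genes in the control line and 0 and 0.110 in the knockdown line. Per 1000 listed peaks at any FDR, the rates were 0.197 and 0.193 in the control line and 0.113 and 0.127 in the knockdown line. When each list was limited to its 20000 top-ranked peaks, 1 and 2 lay near the genes in the control line and 0 and 2 in the knockdown line, which overlapped. B2M had 10 such FDR peaks in each ZR751shLucif library and 0 and 7 in ZR751shMLL3. HLA-E had 0 in every library.

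Peaks found in both replicates by the irreproducible discovery rate (IDR, at 0.1 or less) gave 2 H3K4me1 peaks near the genes in ZR751shLucif and 0 in ZR751shMLL3. The pair overlapped each other, at chr6:32829212-32830384 and chr6:32829457-32830627, beyond the annotated end of PSMB9. Both lay within 50 kb of TAP1, TAP2, PSMB8 and PSMB9, so 4 of the 9 genes shared the same signal. Over all genes, 54.3% had a reproducible peak within 50 kb in ZR751shLucif and 17.0% in ZR751shMLL3. HLA-B, HLA-C, HLA-E, B2M and TAPBP had none in either line.

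SP1 peaks at an FDR of 0.01 or less near the genes numbered 0 and 0 in the control line and 24 and 12 in the knockdown line. Neither ZR751shLucif list held any such peak in the genome, with smallest FDR values of 0.0290 and 0.0622, so their counts near the genes could only be 0. The ZR751shMLL3 lists held 204178 and 12065 such peaks, of which 0.118 and 0.995 per 1000 lay near the genes. In ZR751shMLL3 replicate 1 nearly the whole list of 209985 peaks passed, so the 24 were all its listed peaks near the genes. Listed peaks at any FDR near the genes numbered 56 and 54 in the control line and 24 and 87 in the knockdown line, which overlapped. Among the 20000 top-ranked peaks, 2 and 4 lay near the genes in the control line and 2 and 15 in the knockdown line. At an IDR of 0.5 or less, 1 reproducible SP1 peak was found in ZR751shLucif, at chr6:33266997-33267383 just past the 3′ end of TAPBP, and 0 in ZR751shMLL3. The respective shares of all genes with such a peak were 6.11% and 24.3%. The same position was also in both ZR751shMLL3 lists, at ranks 192774 and 722, against ranks 10243 and 12314 in ZR751shLucif.

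Within 1 kb of a start site, SP1 peaks among the 20000 top-ranked were found for HLA-E, B2M, TAP1 and PSMB9 in ZR751shMLL3 replicate 2 and for 0 of the 9 genes in the other SP1 libraries. The peak at B2M had its summit -1 base from the start site at rank 5344, and that at HLA-E 211 bases past it at rank 4932. TAP1 and PSMB9, which run away from each other on opposite strands from these start sites, shared 1 peak at rank 7058. In that library 52.5% of all genes tested had such a promoter peak, against 5.17% to 6.65% in the other three, so 4 of 9 was no more than the share of all genes. ZR751shMLL3 replicate 1 had none of these peaks at the 9 promoters. For ERα, at an IDR of 0.7 or less, 0 reproducible peaks lay within 50 kb of the 9 genes in either line, where 6.19% of all genes had such a peak in ZR751shLucif and 5.69% in ZR751shMLL3.

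**Figure D4:**
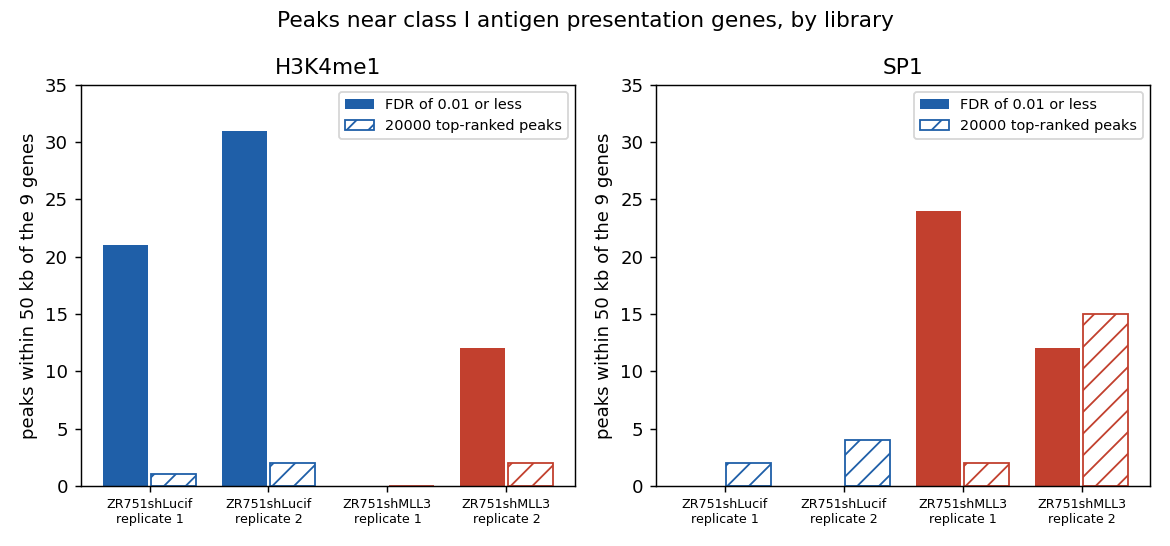
Number of H3K4me1 (left) and SP1 (right) peaks within 50 kb of the 9 genes in each library, ZR751shLucif in blue and ZR751shMLL3 in red, at an FDR of 0.01 or less (solid) and among the 20000 top-ranked peaks of the list (hatched). H3K4me1 peaks at that FDR number 21 and 31 against 0 and 12, and SP1 peaks 0 and 0 against 24 and 12.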

How the data were processed

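Expression values were the authors' FPKM per RefSeq gene, made per the deposited notes with TopHat2 2.0.13, Cufflinks 2.2.1 and Cuffnorm 2.2.1 on hg19. ChIP-seq reads were aligned with BWA 0.7.5a-r405. The deposited peak lists, 1 per library, hold, from the authors' SPP runs, a signal per peak and its FDR as −log10. How many reads lie behind a single value is unknown. The members, lists and windows were chosen with earlier results of these data known, and the genes named by rule were the 9, KMT2C, the highest and lowest difference of each pathway list, any gene passing the adjusted test and the 5 nearest patterns. The marker genes, the ratio partners PSMB5, PSMB6 and PSMB7, NLRC5 and ERAP1 were named outside it.

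FPKM were tested with limma 3.58.1 in R 4.3.3 on log2(FPKM + 0.5), leaving out genes whose mean was 1 or less, and adjusted by Benjamini-Hochberg over the rest at 0.05. Symbols came from RefSeq identifiers, and positions and sequences from GENCODE on GRCh37. Whether counting used strand is not given in the sources used here.

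Replicate peaks overlapping by 1 bp or more were paired, and the IDR of each pair came from a Gaussian copula mixture on the signal ranks, in Python 3.11.15. The thresholds were those of the study's replicate table, and its legends name stricter ones for SP1 and ERα. Of 6 mixture settings tried, 2 kept pairs of unrelated simulated lists and 4 kept none. All 6 had been fitted to the real lists before 1 of the 4 was taken, so the choice was made with its counts in view. The setting taken bounds the mean of the reproducible part at 1 and its correlation at 0.5, and is the only one of the 4 that estimates the SD. Both H3K4me1 fits lay at these bounds. The other three are alternatives. Steps were tested on simulated data. Input libraries were not analysed here, and the value of 1 gene of the lists is not reported here.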

Additional observations from a re-analysis of the deposited data

How the results depend on the processing

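The members' count of calls and the direction of their median held under most settings. Median scaling moves all genes by the same amount, so a sign turned by it alone says nothing of a gene. The cause of the other changes below was not tested. The fit with 1 surrogate variable removed did not count that variable against the degrees of freedom, so its calls cannot be set beside the others. Of all genes, 1 was called in the fit reported, 0 without a filter on low values, 33 with the replicate block and 1682 with 1 surrogate variable removed, and 2 to 1269 with 1 library left out. The highest count came without ZR751shLucif replicate 2, the library whose removal leaves replicate 1 as the lone control, assumed to vary like the others. Of the 9 genes, 0 were called in the fit reported, 4 with the surrogate variable removed (HLA-B, TAP1, TAPBP and PSMB8), and 0 to 1 with 1 library left out, the 1 being HLA-B without ZR751shLucif replicate 2. The median difference of the 9 ran from 0.29 without ZR751shLucif replicate 2 to 0.71 without ZR751shLucif replicate 1.

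Whether the replicate numbers pair the libraries is not known. Deviations of same-numbered libraries correlated at 0.0374 across genes. With 2 libraries a line this is a single value, and ZR751shLucif replicate 1 stood apart, so it cannot decide the question. The replicate block called 0 of the 9. B2M had a log2 difference of 0.063 with median scaling, 0.18 with quantile normalization and 0.34 with the GC trend removed, and -0.47 to 0.44 with 1 library left out. TAP2 had 0.067, 0.052 and 0.11 under those settings, and -0.075 to 0.050 with 1 library left out. PSMB9 ran from -0.64 to 1.48 with 1 library left out, and the log2 difference of its ratio to PSMB6 ran from -0.076 without ZR751shLucif replicate 2 to 1.51 without ZR751shLucif replicate 1.

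Near the genes, reproducible H3K4me1 peaks in ZR751shLucif numbered 1 at an IDR of 0.05, 1 at a reciprocal overlap of 50% and 12 at an FDR of 0.01 in both lists, and 0 in ZR751shMLL3 under all settings. Reproducible SP1 peaks in ZR751shLucif numbered 0 at an IDR of 0.1 and 0 at an FDR of 0.01 in both lists. In ZR751shMLL3 they numbered 2 at an FDR of 0.01 in both lists and 1 at a reciprocal overlap of 50%, so the order of the lines for SP1 turned with the rule. The 3 other mixture settings that kept no unrelated pairs, chosen after seeing the data, and the mixture without bounds left the counts near the genes at 2, 0, 1 and 0. Over the genome these settings moved the reproducible H3K4me1 peaks of ZR751shMLL3 from 4631 to as many as 9209, and to 14888 without bounds. With 2 libraries a line, no permutation test of a peak count could pass 0.05.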
